A study of Mus musculus with 16 samples.

Results

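The genes described here are 10 members of the matrix metalloproteinase system, namely Mmp2, Mmp3, Mmp8, Mmp9, Mmp12, Mmp13, Mmp14 and the inhibitors Timp1, Timp2 and Timp3. They were chosen by name, out of 16593 genes with a symbol on the array, and 16 of its 25697 probes carry those names. RNA of mouse lung was measured on 16 Illumina bead arrays, each of which reads 1 sample through probes designed for single genes. Each array held the lung RNA of 1 female C57BL/6N mouse of 17 weeks, and each of the 4 groups held 4 mice. Of these, 2 groups are labelled wild type and 2 as mutants of Cox4-2. Cox4-2, named Cox4i2 on the array, encodes an isoform of a subunit of cytochrome c oxidase, the terminal enzyme of the respiratory chain. The wild type untreated and mutant untreated groups are labelled as having had no treatment. The wild type challenged and mutant challenged groups were first sensitised by an intraperitoneal injection of 10 µg ovalbumin, the egg white protein, in 2 mg of the adjuvant alum. They then breathed an aerosol of 1% ovalbumin for 30 min on 3 occasions, which is a common mouse model of allergic airway inflammation. The comparisons ask how the lung transcriptome answers the allergen in each genotype. The labels do not say whether the untreated mice were sensitised, what part of Cox4-2 is lost, or how many founders the line has.

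Matrix metalloproteinases are zinc-dependent proteases that cut collagens, elastin, gelatin and many cytokines and receptors. They are made as inactive proenzymes, and the tissue inhibitors of metalloproteinases (TIMPs) block the active enzymes. In lung, Mmp12 is known as the elastase of macrophages, Mmp8 and Mmp9 as enzymes stored in neutrophil granules, and Mmp14 as a membrane-bound enzyme that activates proMmp2 together with Timp2.

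Of the 10 genes, Mmp13, Mmp12, Mmp3 and Mmp8 lie in the metalloproteinase cluster of chromosome 9, where the order of genes in RefSeq is Mmp13, Mmp12, Mmp1b, Mmp3, Mmp1a, Mmp10, Mmp8, Mmp27, Mmp20 and Mmp7. Mmp9 lies on chromosome 2, Mmp14 on 14, Timp2 on 11, Timp3 on 10 and Timp1 on X. The upstream sequences of the cluster genes that were measured well, and of Timp1, are printed because Mmp12 and Mmp13 moved together and Timp1 rose outside the cluster. Windows of 250 bases before and 50 after an annotated start came from RefSeq (GRCm38.p6). The set of windows used held 8 of the 10 genes and lacked Mmp2 and Mmp9. Capitals mark TGANTCA, a consensus of the letters bound by AP-1, the dimer of Fos and Jun proteins. It was searched on both strands, which read alike.
Mmp13, chr9:7272264-7272563, + strand: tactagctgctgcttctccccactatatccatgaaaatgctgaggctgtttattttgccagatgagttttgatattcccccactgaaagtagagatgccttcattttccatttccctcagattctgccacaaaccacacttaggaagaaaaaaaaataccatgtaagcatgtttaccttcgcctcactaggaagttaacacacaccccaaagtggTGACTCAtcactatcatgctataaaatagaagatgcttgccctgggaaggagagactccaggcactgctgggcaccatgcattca
Mmp12, chr9:7347124-7347423, + strand, the later of 2 annotated starts: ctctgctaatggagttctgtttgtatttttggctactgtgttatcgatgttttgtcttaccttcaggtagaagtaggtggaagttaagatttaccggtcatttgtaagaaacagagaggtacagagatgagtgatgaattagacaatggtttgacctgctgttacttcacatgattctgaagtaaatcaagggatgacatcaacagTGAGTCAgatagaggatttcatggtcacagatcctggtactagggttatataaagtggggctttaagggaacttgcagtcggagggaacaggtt
Mmp3, chr9:7445572-7445871, + strand: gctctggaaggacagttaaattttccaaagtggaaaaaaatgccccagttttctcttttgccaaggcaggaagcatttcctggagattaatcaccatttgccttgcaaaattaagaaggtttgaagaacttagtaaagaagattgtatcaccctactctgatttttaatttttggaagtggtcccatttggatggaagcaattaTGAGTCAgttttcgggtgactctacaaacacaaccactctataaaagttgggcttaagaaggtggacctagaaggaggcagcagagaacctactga
Timp1, chrX:20869916-20870215, + strand: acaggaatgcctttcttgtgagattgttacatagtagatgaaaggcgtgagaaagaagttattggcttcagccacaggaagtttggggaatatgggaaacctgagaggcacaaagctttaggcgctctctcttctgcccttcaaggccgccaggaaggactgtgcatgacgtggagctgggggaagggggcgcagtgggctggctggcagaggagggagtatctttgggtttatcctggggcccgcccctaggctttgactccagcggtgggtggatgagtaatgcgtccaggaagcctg
TGANTCA begins 35 bases before the start in Mmp13, 44 in Mmp12 and 46 in Mmp3, and 7.81% of all 32851 windows of that length hold it. The Timp1 window, the earlier Mmp12 window and those of Mmp8, Mmp14, Timp2 and Timp3 do not hold these exact letters. Variants that differ by a letter were not searched, so the presence or absence of AP-1 sites was not tested. The letters TATAAA, those of the TATA box, were searched on both strands and were found in 13.6% of all windows. They begin 16 bases before the start in Mmp13 and 7 before it in Mmp3, 5 bases after it in the later Mmp12 window, and in Mmp8 they read on the opposite strand. The GC content was 43.7% in the Mmp13 window, 40.7% in the later Mmp12 window and 40% in the Mmp3 window, but 55% in that of Timp1, 67% in Timp3 and 68.7% in Timp2. A match describes the letters only.

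Values below are the deposited intensities, which are linear, background subtracted and with the same upper quartile and highest value on every array. Differences are on a log2 scale after a background correction that adds an offset of 16, so folds of dim probes are understated. Intensities over 16.8 were taken as above background, and a call is a limma adjusted p (Benjamini-Hochberg over all 11962 features tested) under 0.05. Arrays of a group agreed at rank correlations of 0.945 to 0.967, and arrays of different groups at 0.933 to 0.963. Lung held its own markers, with all 6 lung epithelium markers above background on every array. The Cox4i2 probe read 182 to 372 on wild-type arrays and 77.5 to 243 on mutant arrays. RNA of other tissue set 3 challenged arrays apart, namely wild type challenged arrays 1 and 3 and mutant challenged array 2. The summed intensity of 10 skeletal muscle markers was 16501 to 42808 there, while the remaining 5 arrays of challenged mice had 482 to 1495 and untreated mice 754 to 1718. That of 10 squamous epithelium markers was 4808 to 8424, 354 to 604 and 345 to 485 in the same order. Acta1, of skeletal muscle, read 62.7 or more on every mutant challenged array and 1.06 or less on every untreated array. Leaving out the 3 arrays therefore did not remove all signal of such markers. The members' challenge and genotype calls, and the counts of listed genes, are given with and without the 3 arrays where a call changed. Leaving them out leaves 2 wild type challenged and 3 mutant challenged arrays.

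Challenge gave calls in the same direction in both genotypes for 4 of the 9 measurable genes: Mmp12, Mmp13 and Mmp14 rose and Timp3 fell. Timp1 was called higher in wild type only, with differences of 1.67 there and 0.76 in mutants. Mmp3 was called lower in mutants only, with differences of -0.33 in wild type and -0.98 in mutants. The interaction was called for neither gene. Of the 9 tested genes, 4 were called higher and 1 lower in wild type, beside 7.85% and 9.28% of all features. In mutants 3 were called higher and 2 lower, beside 11.8% and 11.5% of all features. Calls in both genotypes in the same direction were made for 9.11% of all features. The median difference of the 9 genes was 0.19 in wild type and 0.76 in mutants, beside -0.01 and 0.02 over all features. It was 0.45 and 0.70 when the 3 arrays were left out. Mmp8 did not pass the filter on dim probes and was not tested.

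**Figure D1:**
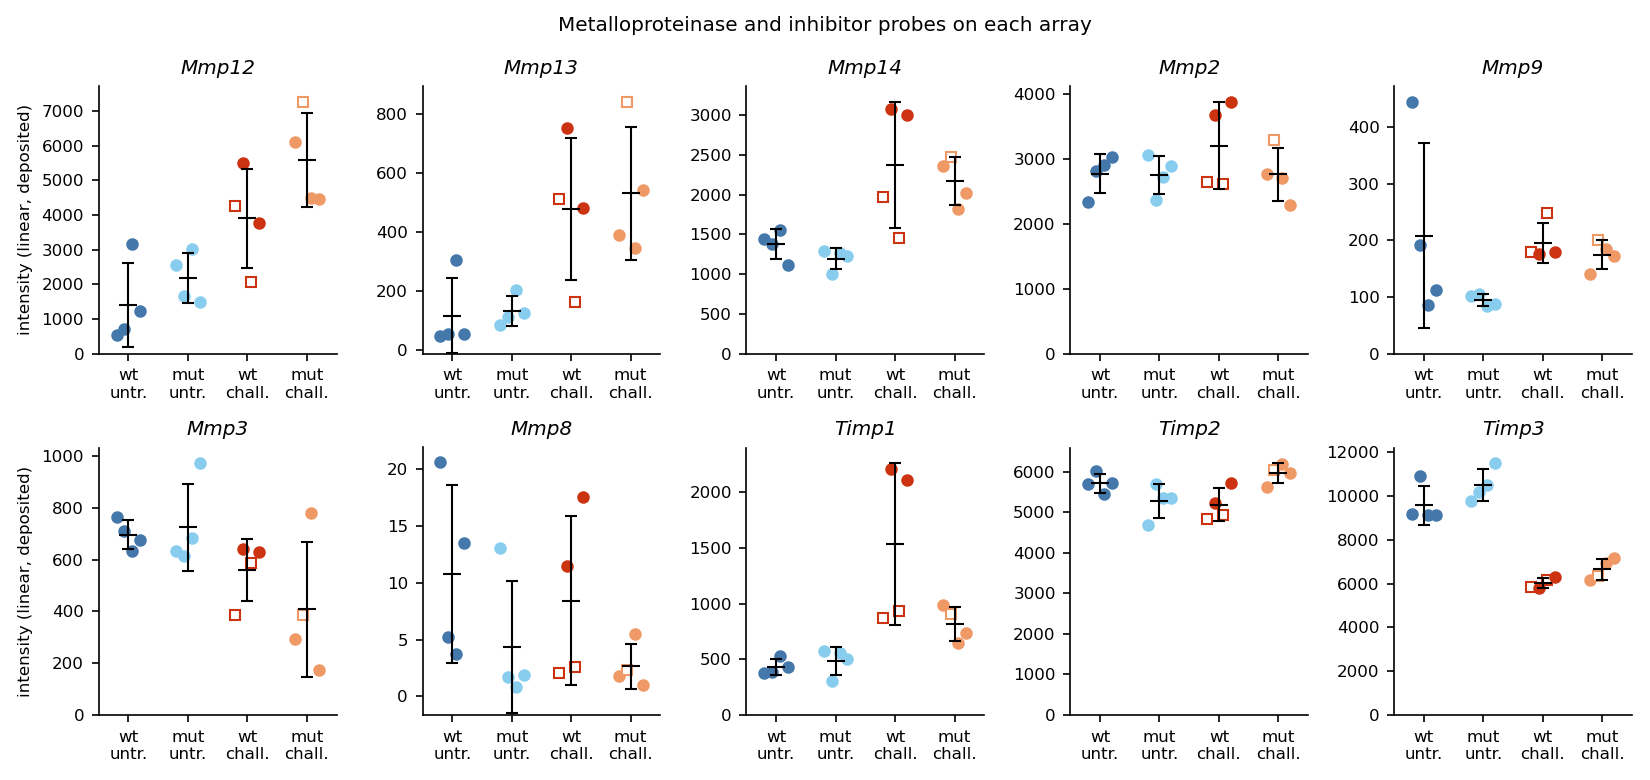
Deposited linear intensity (vertical axis, 1 panel per gene) of the tested probe, or the single Mmp8 probe, on each of the 16 arrays, by group. Points are arrays, open squares are the 3 arrays with RNA of other tissue, bars are mean ± SD (n = 4), and axes reach down to 0 or below. Timp3 on all challenged arrays lies below all untreated arrays, and the wild type challenged arrays of Timp1 fall into 874 and 931 against 2209 and 2111.

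Mmp12, the macrophage elastase (probe ILMN_1250421), rose in both genotypes. On untreated arrays 1 to 4 it read 536, 694, 3172 and 1220 in wild type and 2565, 1672, 3014 and 1489 in mutants. After challenge it read 4266, 5511, 2072 and 3783 in wild type and 6122, 7273, 4486 and 4466 in mutants. In wild type the groups overlapped, since untreated array 3 lay above challenged array 3. In mutants every challenged array lay above every untreated array. The log2 difference was 1.73 (SE 0.44) in wild type, a 3.32-fold rise (limma adjusted p = 0.0134), and 1.38 (SE 0.44) in mutants, a 2.60-fold rise (limma adjusted p = 0.0324). Without the 3 arrays the mutant difference was 1.24 (limma adjusted p = 0.0752) and the wild-type difference 2.04 (limma adjusted p = 0.0186). The call in mutants was also lost without mutant untreated array 2 or 4 or mutant challenged array 1 or 2 (limma adjusted p = 0.0724 to 0.0903).

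Mmp13, a collagenase (probe ILMN_2737685), rose in both genotypes too. It read 48.7, 55.8, 306 and 53.9 on untreated wild-type arrays and 512, 750, 163 and 482 on challenged ones. Mutant arrays read 84.4, 110, 203 and 125 untreated and 390, 841, 345 and 543 challenged. As with Mmp12, untreated array 3 was the highest and challenged array 3 the lowest of their wild-type groups and these overlapped, while the mutant groups did not. The difference was 2.11 (SE 0.50) in wild type, 4.32-fold (limma adjusted p = 0.00971), and 1.87 (SE 0.50) in mutants, 3.66-fold (limma adjusted p = 0.0145). Leaving out the 3 arrays gave 2.61 (limma adjusted p = 0.00591) and 1.63 (limma adjusted p = 0.0277). A dimmer Mmp13 probe (ILMN_2799267), at 18.2 to 49.7 over all arrays, differed by 0.34 in wild type (limma adjusted p = 0.164) and 0.27 in mutants (limma adjusted p = 0.247). The remaining one (ILMN_1249336) passed the background limit on 1 array, mutant challenged array 2, at 20.1. The Mmp13 calls therefore rest on 1 of 3 probes. Markers of cartilage and bone, tissues known for Mmp13, were mostly dim, with 6 to 8 of 9 not above background on any given array. Their summed intensity was 104 to 136 on challenged arrays and 59.6 to 102 on untreated ones. The part of such tissue in the Mmp13 values was not tested.

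Mmp14, the membrane-type enzyme (probe ILMN_1240726), rose in both genotypes. It read 1448, 1386, 1558 and 1116 on untreated and 1975, 3075, 1461 and 3008 on challenged wild-type arrays. In mutants it read 1289, 1000, 1266 and 1227 untreated and 2361, 2474, 1820 and 2029 challenged. In wild type the groups overlapped at challenged array 3, which carried other tissue, and in mutants they did not overlap. Mutant challenged array 2, which also carried other tissue, was the highest of its group for Mmp14, at 2474. The difference was 0.73 (SE 0.20, limma adjusted p = 0.0207) in wild type, 1.66-fold, and 0.85 (SE 0.20, limma adjusted p = 0.00772) in mutants, 1.80-fold. Mmp14 differed by 1.14 in wild type without the 3 arrays (limma adjusted p = 0.000576) and by 0.78 in mutants (limma adjusted p = 0.00273). The wild-type call was lost without wild type untreated array 4 or wild type challenged array 2 or 4 (limma adjusted p = 0.0662 to 0.069).

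Mmp3, stromelysin 1 (probe ILMN_2899041), which cleaves proteoglycans and other proenzymes, went the other way. Untreated arrays read 766, 711, 634 and 676 in wild type and 633, 613, 683 and 973 in mutants. Challenged arrays read 386, 639, 586 and 631 in wild type and 292, 387, 779 and 174 in mutants. In mutants 3 of 4 challenged arrays lay below all untreated ones, and array 3 lay within their range. The difference was -0.33 (SE 0.31, limma adjusted p = 0.492) in wild type and -0.98 (SE 0.31, limma adjusted p = 0.0316) in mutants, a 1.97-fold fall, and the interaction was not called (-0.65, SE 0.44, limma adjusted p = 0.582). The other Mmp3 probes differed by -0.77 and -0.80 in mutants and were not called (limma adjusted p = 0.0835 and 0.0648). Leaving out mutant untreated array 3 or 4 or mutant challenged array 1, 2 or 4 also ended the call (limma adjusted p = 0.0522 to 0.0979), as did leaving out the 3 arrays (-1.02, limma adjusted p = 0.0514).

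Mmp9, gelatinase B (probe ILMN_2711075), was not called in either genotype. It read 445, 192, 84.9 and 112 on untreated and 180, 175, 249 and 179 on challenged wild-type arrays, with the untreated group spanning the challenged one. In mutants it read 102, 105, 84.3 and 86.6 untreated and 140, 201, 185 and 172 challenged, and the groups did not overlap. The differences were 0.16 (SE 0.32, limma adjusted p = 0.768) and 0.78 (SE 0.32, limma adjusted p = 0.0881). Without wild type untreated array 1 or 3, which enter through the shared estimate of spread, the mutant value passed (limma adjusted p = 0.0092 and 0.0486). It also passed with only the mutant groups in the fit (limma adjusted p = 0.00293). Wild type untreated array 1, highest for Mmp9, also had the highest neutrophil marker score, 0.60 against -0.34 to -0.10 on the other 3. Such a score is the mean log2 value of a list's tested genes, relative to untreated wild type. Of 11 neutrophil markers 1 to 4 were not above background on any given array, Mpo being below it on all 16, and their summed intensity was 11447 to 25915 in untreated wild type, 9765 to 19582 in untreated mutants, 13639 to 23743 in challenged wild type and 16754 to 18897 in challenged mutants. Their part in the Mmp9 values was not tested, and in whole lung RNA more cells of a type and more RNA per cell cannot be told apart.

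Mmp2, gelatinase A (probe ILMN_2678218), made by fibroblasts, read 2339 to 3030 on untreated wild-type and 2364 to 3050 on untreated mutant arrays. Challenged arrays read 2643, 3670, 2616 and 3876 in wild type and 2767, 3283, 2697 and 2289 in mutants. The Mmp2 groups overlapped in both genotypes, and the differences were 0.19 (SE 0.15, limma adjusted p = 0.396) and -0.00 (SE 0.15, limma adjusted p = 0.992). In this fit over all arrays the 95% intervals of the Mmp2 differences were -0.12 to 0.51 and -0.32 to 0.31. The lower challenged wild-type values came from arrays 1 and 3, and the wild-type difference without the 3 arrays was 0.45 (limma adjusted p = 0.0378). Mutant challenged array 2, which also carried other tissue, was the highest of its group for Mmp2, at 3283. Mmp8, the neutrophil collagenase (probe ILMN_1241378), lay between 0.862 and 20.6 on all arrays. It passed the background limit on 2 of 16, wild type untreated array 1 at 20.6 and wild type challenged array 4 at 17.6, so no change of Mmp8 could be measured.

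Timp1, the inhibitor that inflammation induces in many tissues (probe ILMN_3103896), rose in wild type. Untreated arrays read 380, 390, 531 and 427 in wild type and 577, 305, 553 and 504 in mutants. Challenged arrays read 874, 2209, 931 and 2111 in wild type and 983, 907, 646 and 734 in mutants. In both genotypes the challenged arrays lay above the untreated ones, and over genotypes all 8 challenged arrays lay above all 8 untreated arrays, which held for 2.18% of features. The Timp1 difference was 1.67 (SE 0.28, limma adjusted p = 0.00148) in wild type, 3.18-fold, and 0.76 (SE 0.28, limma adjusted p = 0.0641) in mutants, 1.69-fold. Another Timp1 probe (ILMN_2769918) differed by 1.85 (limma adjusted p = 0.000881) and 0.87 (limma adjusted p = 0.0429). The lower challenged wild-type values of Timp1 came from arrays 1 and 3, which carried other tissue. Mutant challenged array 2, which also carried it, read 907, between the 646 and 983 of other arrays of its group. Leaving out the 3 arrays gave Timp1 differences of 2.29 (limma adjusted p = 0.00011) in wild type and 0.70 (limma adjusted p = 0.0306) in mutants. With wild type challenged array 1, 2 or 3 left out alone, the mutant rise passed too (limma adjusted p = 0.0461 to 0.0496), as it did with only the mutant groups in the fit (limma adjusted p = 0.0267).

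Timp3, an inhibitor bound to the matrix (probe ILMN_2741096), fell in both genotypes. Untreated arrays read 9163, 10902, 9125 and 9125 in wild type and 9790, 10182, 10522 and 11498 in mutants. Challenged arrays read 5863, 5797, 6146 and 6306 in wild type and 6170, 6339, 6940 and 7160 in mutants. Every challenged array of Timp3 lay below every untreated array, which held for 3.21% of features. The difference was -0.66 (SE 0.09) in each genotype, a fall of 1.58-fold (limma adjusted p = 0.000364 in wild type and 0.000411 in mutants). The 3 arrays left out, it was -0.66 and -0.63 (limma adjusted p = 0.00301 and 0.0023). The dimmer Timp3 probe (ILMN_2614759) differed by -0.77 in wild type and -1.20 in mutants (limma adjusted p = 0.00413 and 0.000268). Timp2, which takes part in the activation of proMmp2 (probe ILMN_2712867), read 4683 to 6196 over all 16 arrays. Its differences were -0.14 (SE 0.09, limma adjusted p = 0.272) in wild type and 0.18 (SE 0.09, limma adjusted p = 0.152) in mutants, with overlap in both.

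**Figure D2:**
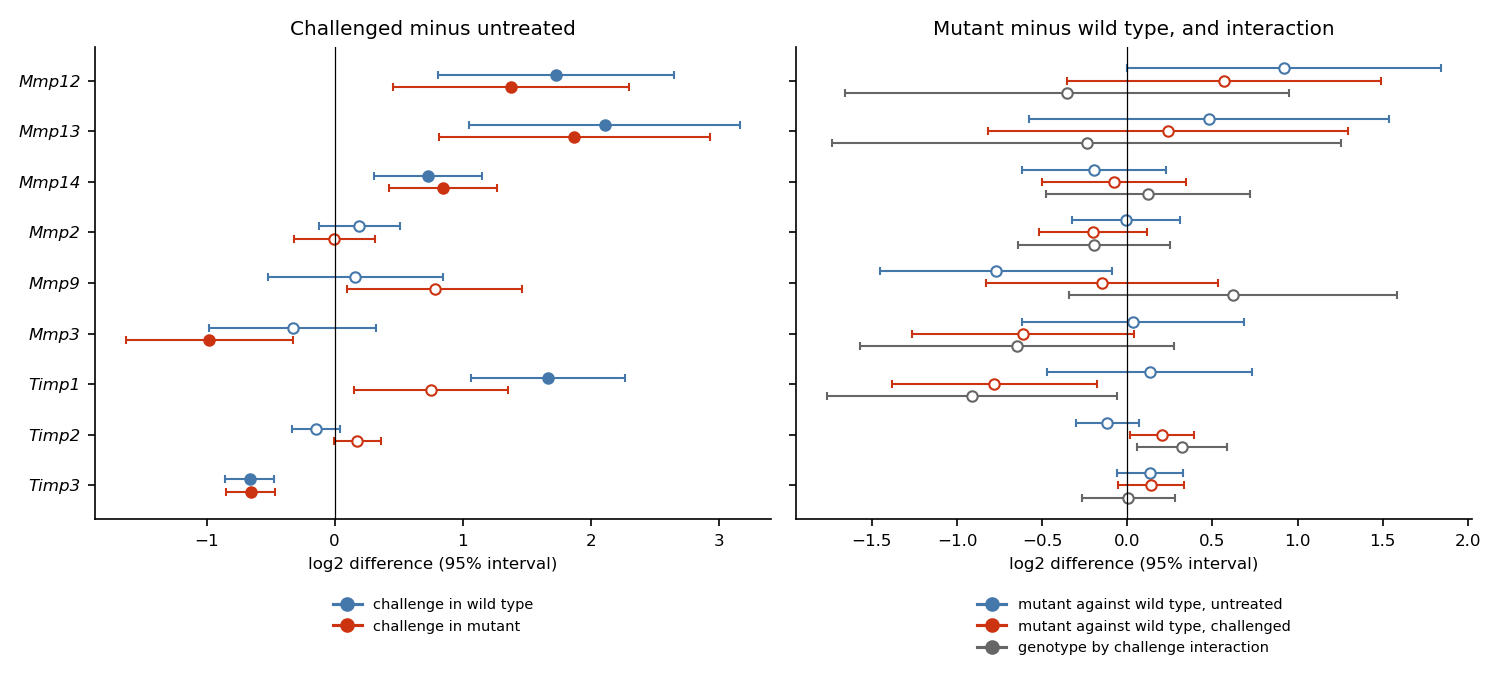
Log2 differences (horizontal axis) of the 9 tested genes with 95% intervals, challenged minus untreated on the left, and mutant minus wild type and the interaction on the right. Filled points passed a limma adjusted p of 0.05: 5 genes in each genotype on the left, and 0 on the right, where the Timp1 interval in challenged lungs runs from -1.38 to -0.18.

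Groups of 4 arrays that do not overlap give the smallest exact permutation p of 0.0286, 2-sided. In wild type this held for 2 of the 9 genes, Timp1 and Timp3, beside 17.9% of all features. In mutants it held for 6 of 9, Mmp9, Mmp12, Mmp13, Mmp14 and Timp1 higher and Timp3 lower, beside 29.6% of all features. Without the 3 arrays, 5 of 9 were called higher and 1 lower in wild type, beside 10.3% and 8.92% of all features, Mmp2 being added. In mutants 3 were then called higher (Mmp13, Mmp14 and Timp1) and 1 lower (Timp3), beside 11.3% and 9.33%.

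**Figure D3:**
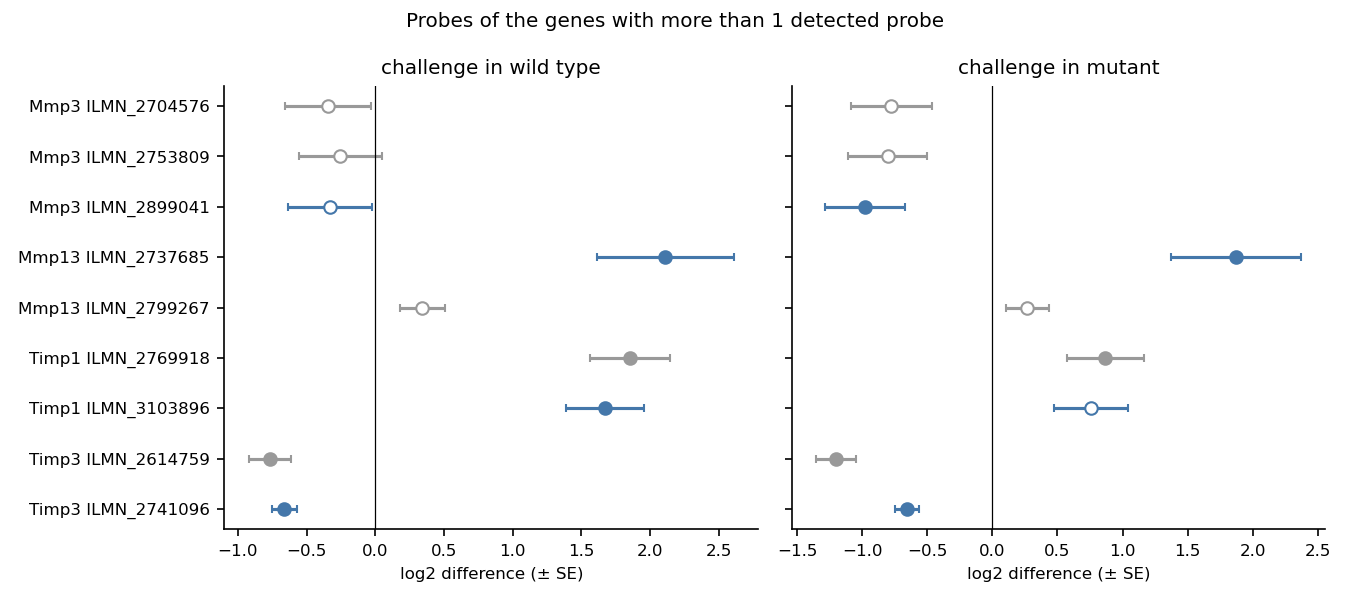
Log2 differences (horizontal axis, ± SE) of every detected probe of Mmp3, Mmp13, Timp1 and Timp3 after challenge, by genotype. Blue marks the tested, brightest probe of a gene, grey the others, and filled points passed a limma adjusted p of 0.05. The probes of each gene lie on the same side of 0, and the dim Mmp13 probe differs by 0.34 and 0.27 where the bright one differs by 2.11 and 1.87.

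Between genotypes none of the 9 genes passed the threshold. These comparisons use the same arrays as those of challenge. In untreated lungs limma called 0 of the 9 genes and 0% of all features, while 1 gene (Mmp9) and 12.1% of features had an unadjusted p under 0.05. Mmp9 differed by -0.77 (SE 0.32, limma adjusted p = 0.349), with overlapping groups. Mmp12 was 0.92 (SE 0.44, limma adjusted p = 0.414) and Mmp13 0.48 (SE 0.50, limma adjusted p = 0.751) in the same comparison. In challenged lungs limma called 0 of the 9 genes and 0.0167% of features, with 2 genes (Timp1 and Timp2) and 12.2% of features at an unadjusted p under 0.05. Timp2 differed by 0.20 (SE 0.09, limma adjusted p = 0.367), from 4836, 5231, 4918 and 5728 in wild type against 5615, 6050, 6196 and 5971 in mutants, which overlap. The interaction, the mutant response to challenge minus the wild-type response, was called for 0 of 9 genes and 0% of features, with 2 genes (again Timp1 and Timp2) and 11.8% of features at an unadjusted p under 0.05. Timp2 had an interaction of 0.32 (SE 0.12, limma adjusted p = 0.338).

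Timp1 held the lowest genotype value in challenged lungs, -0.78 (SE 0.28, limma adjusted p = 0.287), with mutant arrays at 646 to 983 and wild-type arrays at 874 to 2209. Without the 3 arrays, the wild-type group kept 2209 and 2111 and the mutant group 983, 646 and 734. The Timp1 difference was then -1.46 (SE 0.25, limma adjusted p = 0.0212), in a fit that called 0.435% of all features. The interaction of Timp1 was -0.91 (SE 0.40, limma adjusted p = 0.392) over all arrays and -1.59 (SE 0.31, limma adjusted p = 0.0636) without the 3, where 0.15% of features were called. With the muscle score as a covariate the challenged difference was -1.02 (limma adjusted p = 0.151). The lower mutant level of Timp1 thus passed, among these fits, in that which left 2 wild-type arrays, and a different response of Timp1 to challenge passed in neither fit.

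The 9 genes also varied among mice of a group. As a description over 16 arrays, which share 4 groups, correlations of deviations from group means are given. Mmp12 and Mmp13 moved together (r = 0.83), as did Mmp14 and Timp1 (r = 0.87) and Mmp2 and Timp1 (r = 0.83). Without the 3 arrays these were 0.79, 0.75 and 0.64. Mmp9 moved against Mmp12 (r = -0.76) and had r = 0.80 with the neutrophil score. Untreated wild type weighed most in both, since its SD of Mmp9 log2 values was 0.97, against 0.14 to 0.22 in other groups. Mmp12 had r = 0.50 with the alveolar macrophage score and also with the eosinophil score. With the score of monocytes and interstitial macrophages, r was 0.70 for Mmp12 and 0.58 for Timp1. Wild type untreated array 3, highest for Mmp12 and Mmp13 in its group, had a score of 0.71 for that list, against -0.35 to -0.17 on the other 3. The summed intensity of the 6 monocyte and interstitial macrophage markers on the array was 2647 to 5613 in untreated wild type, 2115 to 4648 in untreated mutants, 4576 to 5434 in challenged wild type and 3231 to 6057 in challenged mutants, with Ccr2 not above background on any array. Its part in the rises of Mmp12 and Mmp13 was not tested. Timp1 had r = -0.63 and Mmp14 r = -0.59 with the skeletal muscle score, and -0.67 and -0.64 with the fat score. The pairs of gene and score given here were picked from those of every tested gene with every marker list.

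**Figure D4:**
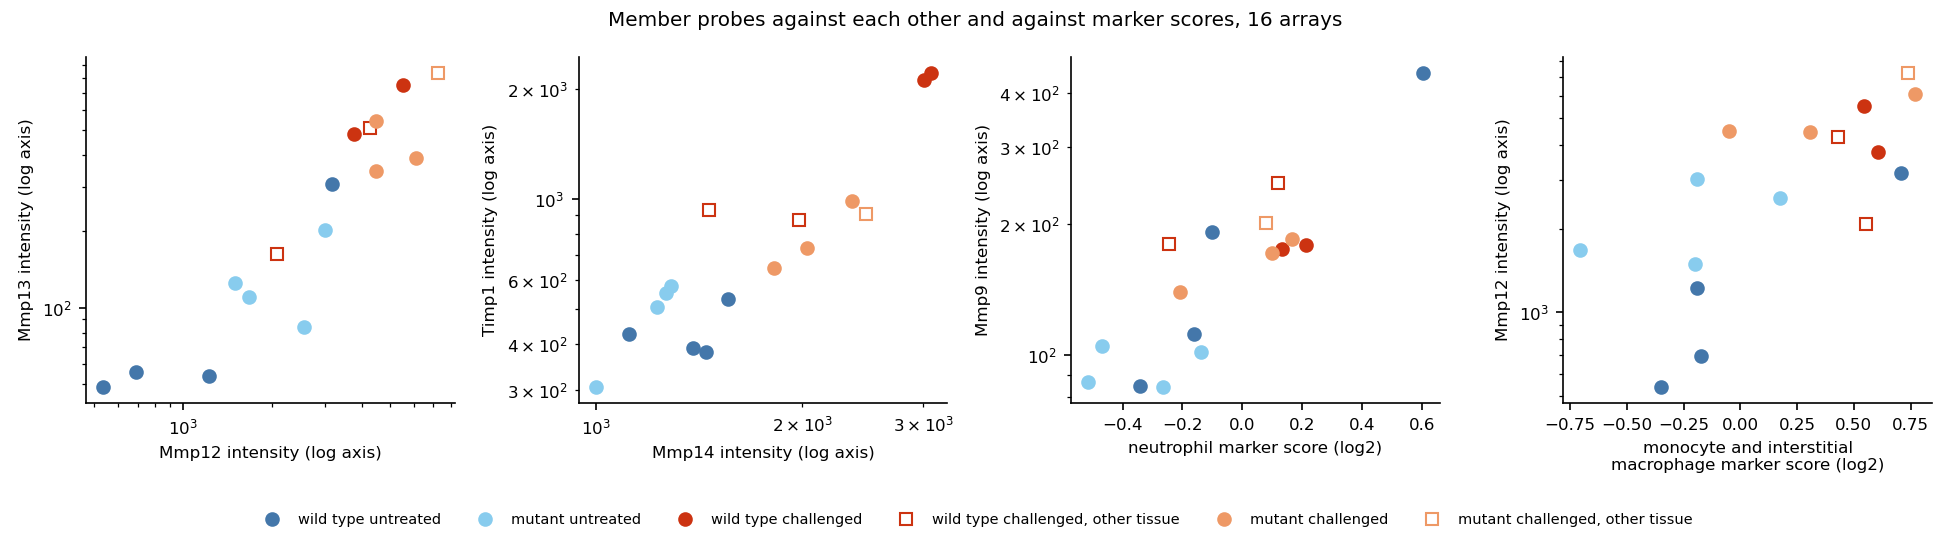
From left to right, Mmp13 against Mmp12, Timp1 against Mmp14, Mmp9 against the neutrophil score and Mmp12 against the monocyte and interstitial macrophage score, on 16 arrays, with log axes for intensity. Colours are groups and open squares the 3 arrays with other tissue. Wild type untreated array 3 (Mmp12 3172, Mmp13 306) lies near challenged arrays, and wild type untreated array 1 (Mmp9 445, score 0.60) is at the far end of the third panel.

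Mmp13, Mmp12 and Timp1 varied most over the 16 arrays (SD of log2 value 1.27, 1.09 and 0.80). The genes whose log2 values correlated most with each are given as a description, since all points share the challenge. For Mmp13 these were Vav1 (r = 0.94, and 0.86 for deviations from group means), Slc29a3, Fgd6, Ap5z1 and Foxs1. For Mmp12 they were Slc29a3 (r = 0.93, deviations 0.93), Mmp13, Cstb, Tspan14 and Ctsb (deviations 0.94), Cstb and Ctsb being an inhibitor of cathepsins and a cathepsin. For Timp1 they were Fignl1 (r = 0.97, deviations 0.90), the acute phase gene Saa3 (deviations 0.92), Birc5, Cenps and Uhrf1.

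Other genes of the system were listed for comparison. Over all features, challenge gave calls in either direction for 17.1% in wild type and 23.3% in mutants, beside which the list counts here and below stand. Of 13 further metalloproteinases on the array 7 were tested. In wild type 0 of these were called, and in mutants Mmp11, stromelysin 3, rose by 0.48 (SE 0.16, limma adjusted p = 0.0366), from 118 ± 23.0 to 169 ± 19.8 (SD, n = 4). Mmp11 lost that call when the 3 arrays were left out (0.49, limma adjusted p = 0.0558). Mmp1a, the neighbour of Mmp3, differed by 0.00 in wild type and 0.47 in mutants (limma adjusted p = 0.989 and 0.0558). Among other inhibitors and the inducer Bsg, 3 of 4 genes on the array were tested. Bsg, a membrane protein that induces metalloproteinases, fell, with differences of -0.58 in wild type and -0.94 in mutants (limma adjusted p = 0.0179 and 0.000983), at dim intensities of 9.56 to 63.7. It was above background on 12 of 16 arrays. Untreated arrays read 30.9 or more and challenged ones 27.8 or less, so the challenged values lie near background. Reck, a membrane-anchored inhibitor, differed by -0.60 and -0.48 (limma adjusted p = 0.0602 and 0.105), and Timp4 by -0.28 and -0.54 (limma adjusted p = 0.466 and 0.127). When the 3 arrays were left out, all 3 tested genes of this list were called lower in wild type and 2 in mutants. Among all features the shares called lower were 8.92% and 9.33%. Reck then differed by -0.83 in wild type and -0.38 in mutants (limma adjusted p = 0.0155 and 0.151). Timp4 differed by -0.74 and -0.66 in that fit (limma adjusted p = 0.0329 and 0.0303), and Bsg by -0.69 and -0.87 (limma adjusted p = 0.0193 and 0.00336).

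Among the plasminogen system, whose plasmin activates several proenzymes, 1 of 4 tested genes was called, Serpinb2, at 1.10 in wild type (limma adjusted p = 0.0491) and 0.43 without the 3 arrays (limma adjusted p = 0.0485). Serpinb2 was above background on 4 of 16 arrays, all challenged, so it entered the test only through challenged arrays and the value is a description. Plau, urokinase, differed by 0.70 in each genotype (limma adjusted p = 0.0876 and 0.0732). Of 12 tested ADAM and ADAMTS genes, relatives of the metalloproteinases, Adamts1 fell, with differences of -0.70 in wild type and -0.65 in mutants (limma adjusted p = 0.021 and 0.0252), and Adam8 rose by 0.62 in mutants (limma adjusted p = 0.0216). Adamts1 passed in neither genotype when the 3 arrays were left out (-0.63 and -0.61, limma adjusted p = 0.0797 and 0.0517), and Adam8 was 0.48 in mutants (limma adjusted p = 0.0495). Adam33 was called higher in both genotypes in that fit (0.65 and 0.54, limma adjusted p = 0.0295 and 0.0381). Of 8 tested proteases that also cut elastin or collagen, the neutrophil protease gene Prtn3 rose by 0.46 in wild type (limma adjusted p = 0.0297) and Fap, of activated fibroblasts, by 0.56 in mutants (limma adjusted p = 0.0134). Fap was above background on 10 of 16 arrays and lay below it on all untreated mutant arrays, at -0.622 to 9.90.

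Substrates of the enzymes were listed too, and their counts stand beside 17.1% of all features called in wild type and 23.3% in mutants. Of 9 tested matrix genes, 2 rose in wild type, Col1a2 by 0.88 (limma adjusted p = 0.00321) and Col3a1 by 1.06 (limma adjusted p = 0.00177), and 1 fell in mutants, the basement membrane gene Col4a1, by 0.64 (limma adjusted p = 0.0058). The median of the 9 was 0.26 in wild type and -0.16 in mutants, and 0 of the 9 were called for the interaction. When the 3 arrays were left out, the medians were 0.42 and -0.16, and the elastin gene Eln was called higher in wild type as well (0.83, limma adjusted p = 0.0171). Between challenged genotypes the median was -0.51 over all arrays and -0.70 in that fit. Col1a1 was called lower in challenged mutants in that fit (-1.06, limma adjusted p = 0.0383), where all arrays gave -0.76 (limma adjusted p = 0.173). Of 14 tested regulators of metalloproteinase genes, Il4 rose by 0.87 and Il6 by 0.65 in wild type (limma adjusted p = 0.0245 and 0.0462), and Ets2, a transcription factor, fell by 0.57 (limma adjusted p = 0.00386). Il4 was above background on 6 of 16 arrays and Il6 on 8. On untreated wild-type arrays both lay below background, at -7.10 to 9.91 and 5.74 to 13.8. In mutants Osm, oncostatin M, rose by 0.98 (limma adjusted p = 0.0151), and in wild type it was called when the 3 arrays were left out (0.83, limma adjusted p = 0.0377).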

How the data were processed

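The values are the submitters' table of linear intensities, 1 per probe and array, as deposited by the authors. GenomeStudio 2011.1 is named per the submitters' processing notes, without its role. From the values, the table is background subtracted, with negative intensities, and quantile normalised, since all arrays share 1 upper quartile. The settings of those steps were not stated by any source used. Quantile normalisation gives every array nearly the same distribution, so a shift of all transcripts would not show. RNA came from Trizol and RNeasy columns and was labelled with an Ambion kit, per the labels. A non-normalised table with 32 columns was not used, because its column names match no label. No slide or scan date is given, so no batch was tested. The number of arrays limits the precision.

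Intensities were corrected with limma's normexp model, with a noise SD of 10.2 from the negative values and a mean of 0, and an offset of 16, then log2 transformed. Probes above the percentile 95 of noise on at least 4 arrays were kept (15869), and the brightest per gene was tested, which left 11962 features, 11014 of them with a symbol. Symbols came from the platform annotation, in which 23978 probes carry 1 symbol, 0 several and 1719 none. Tests used limma 3.58.1 in R 4.3.3 (2-sided, 1 coefficient per group, 12 residual and 3.93 prior degrees of freedom), with Benjamini-Hochberg adjustment and a threshold of 0.05. The code was tested on simulated data with known changes. Promoters and figures were handled in Python 3.11.15. Alternatives covered the background model, normalisation, filter, probe rule, arrays in the fit, a muscle score covariate, a replicate block and each array left out. Same-numbered arrays of different groups did not deviate together (24 correlations of deviations from group means, -0.47 to 0.24, median -0.01), so the numbers were taken as names.

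The members, lists and tests were chosen with earlier results of these data known. Besides the members, the text names list genes past the threshold in any comparison, up to 6 per list with the smallest adjusted p, any gene of a list of 6 or fewer, and the 5 genes most correlated with each of the 3 most variable members. Mmp1a, Plau, Adam33, Eln, Col1a1, Adipoq, Ltf, Retnlg, Lum and Mb, outside that rule, were chosen after their values were seen. Each array is a separate mouse per the labels.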

Additional observations from a re-analysis of the deposited data

Results flagged for a closer look

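In 3 of 36 gene and group combinations 1 array stood far from the other 3 of its group, and chance alone marks about 1 in 20. Mmp9 read 249 on wild type challenged array 3, 1 of the 3 arrays with other tissue, against 175 to 180 on the other 3. Mmp13 read 306 on wild type untreated array 3, against 48.7 to 55.8, and without that array the challenge difference in wild type was 2.67 in place of 2.11. Timp3 read 10902 on wild type untreated array 2, against 9125 to 9163, and all untreated arrays of Timp3 stayed above the challenged ones without it.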

How the results depend on the processing

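Among the alternatives, 253 refits of the 10 called gene results kept direction and call, 24 lost the call and 0 turned. Timp1 in wild type, Timp3 in both genotypes and Mmp14 in mutants kept their calls in every alternative run, namely 28, 28, 28 and 27. The calls of Mmp3 and Mmp12 in mutants were lost most often, in 10 of 29 and 7 of 27. With only the compared groups in the fit, the challenge in wild type gave 1161 features and 3 members (Timp1, Timp3 and Mmp13), and that in mutants 3148 features and 6 members, Mmp9 and Timp1 being added (limma adjusted p = 0.00293 and 0.0267) and Mmp3 lost (limma adjusted p = 0.0776). With arrays left out in turn, it gave 1375 to 2427 features and 4 to 5 members, and the challenge in mutants 1977 to 3074 features and 3 to 6 members. The genotype comparison in untreated lungs (0 features) gave 1 with offset 50, with a floor at 16 or with the mean over probes, 2 with probes above background on all 16 arrays, 3 with only the compared groups and 0 to 21 with arrays left out, 21 without wild type untreated array 3. In challenged lungs (2 features) it gave 4 with offset 50, 1 with the floor, the stricter filter or the muscle covariate, 0 with only the compared groups, 52 and 1 member (Timp1) without the 3 arrays, and 1 to 17 with arrays left out. The interaction (0 features) gave 18 without the 3 arrays and 0 to 4 with arrays left out.

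With the replicate block, challenge gave 1887 features and 5 members in wild type and 2705 and 4 in mutants, Mmp12 being lost there (limma adjusted p = 0.0523), and the genotype comparison in challenged lungs gave 1. Of 24 pairs of same-numbered arrays 3 had correlations over 0.1.

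Differences that turned direction passed the threshold in no fit. Without the 3 arrays, Mmp13 between challenged genotypes was -0.51 and the Mmp14 interaction -0.36. With the muscle covariate, Mmp9 in wild type was -0.0087, Mmp2 in mutants 0.0586, the Mmp14 interaction -0.0159 and the Timp3 interaction -0.00133. Timp3 between challenged genotypes was -0.00985 with the mean over probes and -0.16 by its other probe, and its interaction -0.21 and -0.43. With arrays left out, values spanned -0.14 to 0.59 for Mmp9 in wild type and -0.0896 to 0.0828 for Mmp2 in mutants. Between untreated genotypes they spanned -0.0855 to 0.0637 for Mmp2 and -0.11 to 0.11 for Mmp3, and between challenged genotypes -0.29 to 0.0677 for Mmp14 and -0.19 to 0.51 for Mmp13. Interactions spanned -0.0575 to 0.0507 for Timp3, -0.0896 to 0.27 for Mmp14 and -0.80 to 0.0333 for Mmp13. The cause was not tested. A background model estimated per array, added after seeing the data, gave 2108 and 2843 features and 5 members in each genotype. Mmp8 and the dimmer Mmp13 probes lie near background, which limits what they can show.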

Other observations

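Markers of other cells with calls of their own are given as values. Challenge calls in either direction were made for 17.1% of all features in wild type and 23.3% in mutants. Without the 3 arrays with other tissue these shares were 19.2% and 20.6%. C1qa, a complement gene of tissue macrophages, rose by 0.92 in wild type and 1.12 in mutants after challenge (limma adjusted p = 0.0184 and 0.00545). Cx3cr1, a monocyte receptor, rose by 0.77 in mutants (limma adjusted p = 0.0189), and the call was lost when the 3 arrays with other tissue were left out (limma adjusted p = 0.0519). Rnase2a, of the eosinophil list, rose by 4.11 in wild type (limma adjusted p = 0.000636) and was the only 1 of its 3 tested genes called. The median of those 3 was 0.24 in wild type and -0.01 in mutants, where 0 were called. Car4, of the alveolar macrophage list, fell, with differences of -0.66 and -0.76 (limma adjusted p = 0.00162 and 0.000637). Of 10 tested neutrophil genes 1 was called, Camp, at 0.89 in mutants (limma adjusted p = 0.00167). Camp was above background on 4 of 16 arrays, all challenged, so it entered the test only through challenged arrays and the value is a description. When the 3 arrays were left out, 2 neutrophil genes were called higher in each genotype, Ltf and Retnlg in wild type and Camp and Ltf in mutants.

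Of 7 tested fibroblast genes, Col1a2 and Col3a1 rose in wild type and the receptor gene Pdgfra fell by 0.80 (limma adjusted p = 0.00253). The median of that list was 0.29, and -0.40 when the 3 arrays were left out. In mutants 0 were called, and Lum was called lower in the fit that left them out (-1.10, limma adjusted p = 0.0465). That fit also called Pdgfra higher (0.74, limma adjusted p = 0.0482) and Col1a1 lower in challenged mutants than in challenged wild type.

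Among lung epithelium genes, the surfactant gene Sftpc rose by 0.36 in wild type and 0.49 in mutants (limma adjusted p = 0.0196 and 0.00293). Sftpb fell by 0.47 in wild type (limma adjusted p = 0.0205), and Foxj1, of ciliated cells, rose by 0.55 in mutants (limma adjusted p = 0.00598). Ccl21a, a chemokine of lymphatic tissue, fell, with differences of -1.06 and -1.43 (limma adjusted p = 0.018 and 0.00294). It was the only 1 of the 3 tested lymph node genes called. The median of those 3 was 1.18 in wild type and 0.18 in mutants. Without the 3 arrays with other tissue it was -0.35 and -0.39. Sox9, of cartilage, rose by 0.71 in wild type (limma adjusted p = 0.0306).

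Genes of the other tissue on the 3 arrays were called as well. In wild type Krt14 rose by 2.98 and the fat gene Lep by 0.70 (limma adjusted p = 0.0154 and 0.0065). Krt14 and Lep were 1.60 and 0.36 without those arrays (limma adjusted p = 0.00577 and 0.0446). Acta1 of skeletal muscle, at 5.46, and Lce3b of squamous epithelium, at 3.61, were called in wild type (limma adjusted p = 0.0433 and 0.0289), both above background on challenged arrays only. In the fit without the 3 arrays both wild-type calls were lost (limma adjusted p = 0.0609 and 0.0884), while both were called in mutants (2.10 and 1.42, limma adjusted p = 0.00725 and 0.0361). That fit called Mb lower in wild type (-1.12, limma adjusted p = 0.0478). It also called Adipoq, of fat, lower in wild type after challenge (-2.25, limma adjusted p = 0.000838), higher in challenged mutants than in challenged wild type (2.11, limma adjusted p = 0.0179) and for the interaction (2.47, limma adjusted p = 0.0481). Krt10 fell by 0.36 in mutants (limma adjusted p = 0.0227), a call lost in that fit (limma adjusted p = 0.0541).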
